A study of Mus musculus with 12 samples.

Results

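The mevalonate enzymes up to farnesyl diphosphate, with the synthase that follows, were followed step by step in N2a cells, a mouse neuroblastoma line. They were chosen by name: Acat2, Hmgcs1, Mvk, Pmvk, Mvd, Idi1, Fdps and Ggps1, which make 8 of 24318 gene rows in the deposited tables. Of the 8, 7 passed the filter of a mean of at least 1 FPKM (fragments per kilobase of exon, relative to library depth, the authors' unit of level), as did 11312 genes over all 12 libraries. Hmgcs1 did not pass it.

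Messenger RNA was sequenced from 3 groups of 4 libraries each. SE-BDEV cells received brain-derived extracellular vesicles (BDEVs) of the group named for status epilepticus, a prolonged seizure. CON-BDEV cells received BDEVs of the group named CON, which the labels do not spell out, and Vehicle cells received vehicle only. Vesicles of this kind are shed by cells and carry membrane lipids, proteins and RNA. All 3 groups were the same cell line, with no genetic change given in the labels. The sources used here give neither vesicle dose nor length of treatment nor donor animals. Nothing in the labels tells if replicates were separate cultures, so the spread behind each p-value may be technical.

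The mevalonate pathway builds isoprenoid units from acetyl-CoA in the cytosol, endoplasmic reticulum and peroxisome. Farnesyl diphosphate, its branch point, goes on to squalene and cholesterol, to the dolichols, to ubiquinone and haem A, and to the lipid anchors of small GTPases. Transcription of most of these enzymes is known to be driven by SREBP2 (gene Srebf2), a membrane-bound factor that is released to the nucleus when sterols in the endoplasmic reticulum are low. Neurons and neuroblastoma cells make cholesterol themselves.

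Estimated depth was 12900000 to 15700000 fragments in the vesicle-treated libraries and 15100000 to 16600000 in Vehicle, with SE-BDEV replicate 4 the only treated library to reach the Vehicle range. Libraries of a group correlated across genes with r of 0.990 to 0.997, and the median SD over genes was lowest in Vehicle, at 0.0565 on the log2(FPKM + 1) scale, against 0.0739 for CON-BDEV and 0.0898 for SE-BDEV. All 12 neuroblastoma markers checked, among them Phox2a, Th and Tubb3, were at 1 FPKM or more. Their summed level was 1338 to 1494 FPKM in SE-BDEV, 1421 to 1510 in CON-BDEV and 1352 to 1404 in Vehicle, so that every CON-BDEV library lay above every Vehicle library. Of 37 markers of other brain and blood cells, 36 had a row and 7 reached 1 FPKM over the 12 libraries. Their summed level was 36.3 to 41.2 FPKM in SE-BDEV, 38.6 to 41.1 in CON-BDEV and 38.2 to 42.5 in Vehicle. Cldn5, Neurod6 and Hbb-b1, which mark endothelium, forebrain neurons and red blood cells, were listed at 0 throughout. The summed astrocyte markers were 0.640 to 0.855 FPKM in CON-BDEV and 0.990 to 1.14 FPKM in Vehicle, also without overlap. In SE-BDEV their sum was 0.744 to 1.02 FPKM, which overlapped Vehicle. None of the astrocyte markers had a mean of 1 FPKM over the 12 libraries. For single genes, every CON-BDEV library lay below every Vehicle library in 6.24% of all genes tested. The part of depth and of these markers in the results was not tested. In bulk RNA, fewer cells of a type and less RNA per cell cannot be told apart.

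Promoters of the enzymes are shown because most of them moved together in the data that follow. RefSeq windows of 300 bases (250 before the start of transcription and 50 after it, GRCm38.p6) were found for 7 of the 8 genes, with 2 windows for Pmvk and none for Fdps. They were searched on both strands for a sterol regulatory element (TCACNCCAC), the CCAAT box (CCAAT) and the GC box (GGGCGG); SREBP2 is known to work together with the factors that bind the latter boxes. The bases before the start are printed for 3 enzymes whose messages lay below Vehicle in every treated library and for Ggps1, whose message did not. Among the enzymes below Vehicle that had a window, these 3 are the ones whose windows held both boxes. Mvk lies at chr5:114444019-114444268 on the plus strand, Mvd at chr8:122443423-122443672 on the minus strand, Idi1 at chr13:8885356-8885605 on the plus strand and Ggps1 at chr13:14063489-14063738 on the minus strand. Each is written 5′ to 3′ along its gene, with CCAAT and GGGCGG, or their reverse complements, in capitals.
Mvk: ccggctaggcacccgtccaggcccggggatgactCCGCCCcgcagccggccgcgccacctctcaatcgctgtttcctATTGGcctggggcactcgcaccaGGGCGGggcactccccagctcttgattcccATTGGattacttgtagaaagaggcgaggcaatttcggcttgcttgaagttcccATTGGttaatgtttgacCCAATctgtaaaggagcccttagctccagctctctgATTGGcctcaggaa
Mvd: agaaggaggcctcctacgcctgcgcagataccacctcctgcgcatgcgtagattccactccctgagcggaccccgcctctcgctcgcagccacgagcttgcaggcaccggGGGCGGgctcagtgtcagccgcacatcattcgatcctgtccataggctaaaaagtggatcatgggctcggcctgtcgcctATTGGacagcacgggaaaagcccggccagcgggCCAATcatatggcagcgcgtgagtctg
Idi1: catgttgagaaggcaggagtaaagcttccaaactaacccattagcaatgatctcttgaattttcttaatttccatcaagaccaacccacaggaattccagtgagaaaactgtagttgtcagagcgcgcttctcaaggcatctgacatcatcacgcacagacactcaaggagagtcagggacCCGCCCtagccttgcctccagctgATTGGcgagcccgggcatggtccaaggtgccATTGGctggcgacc
Ggps1: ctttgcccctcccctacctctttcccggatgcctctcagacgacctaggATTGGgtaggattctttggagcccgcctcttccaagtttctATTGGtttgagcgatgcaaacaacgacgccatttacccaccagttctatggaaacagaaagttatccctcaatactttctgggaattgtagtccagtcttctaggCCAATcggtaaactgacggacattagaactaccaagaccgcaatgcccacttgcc
In the window of Mvk, CCAAT matched at 5 places, and Mvd and Idi1 had 2 each. Ggps1 had 3 CCAAT matches and no GGGCGG match. Of the other enzymes that lay below Vehicle, the window of Acat2 held 0 CCAAT matches and 1 GGGCGG match. For Pmvk, the first window held 1 CCAAT match, the second held 0, and GGGCGG was in neither. Over the members' windows, CCAAT was found in 6 of 8 and GGGCGG in 5 of 8, where 37.4% and 35.7% of all 32851 promoter windows in the table hold them. The 8 windows include those of Ggps1 and of the unmeasured Hmgcs1. TCACNCCAC was found in 1.24% of all windows and, among these enzymes, in that of Hmgcs1, as TCACCCCAC at position −137 from the start. A match is a description of the letters, and no binding was measured here.

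Against Vehicle, 6 of the 7 measured enzymes had lower levels in both vesicle-treated groups, from the thiolase that opens the pathway to the synthase that makes farnesyl diphosphate. Ggps1, the step after the branch point, did not share this. In CON-BDEV cells 6 of 7 fell and 0 rose (limma, adjusted p under 0.05); of 11320 genes, 1.82% fell and 1.02% rose, 2.84% in all. In SE-BDEV cells 4 of 7 fell and 0 rose; of 11311 genes, 0.628% fell and 0.292% rose, 0.919% in all. For the same 6 genes, every treated library lay below every Vehicle library in each comparison, which held for 4.39% of all genes tested in SE-BDEV and for 6.24% in CON-BDEV. The median log2 change over the 7 was −0.65 in SE-BDEV and −0.57 in CON-BDEV, against 0.01 and 0.00 over all genes. Both comparisons use the same 4 Vehicle libraries.

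Acat2, at chr17:13135907-13153591 on mm9, encodes the cytosolic thiolase that joins acetyl-CoA units into acetoacetyl-CoA. Its level was 57.0, 56.7, 58.7 and 48.2 FPKM in Vehicle replicates 1 to 4. CON-BDEV cells had 39.9, 32.1, 38.2 and 32.4 FPKM, and SE-BDEV cells had 40.5, 25.6, 33.1 and 41.9 FPKM. All treated libraries were below the lowest Vehicle library, and SE-BDEV replicate 2 was the lowest of the 12. Acat2 fell in CON-BDEV by 0.62 on the log2(FPKM + 1) scale (SE 0.08, limma adjusted p = 0.00271). In SE-BDEV the log2 change was −0.65 (SE 0.13, adjusted p = 0.0534), just above the threshold of 0.05 and so not called. The neighbouring Acat3 encodes a near-identical copy, so reads could be split between them. It was measured at 22.8 ± 1.54 FPKM in Vehicle, 20.9 ± 1.24 in SE-BDEV and 22.2 ± 1.53 in CON-BDEV (SD, n = 4).

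Hmgcs1 encodes the cytosolic HMG-CoA synthase, which adds the next acetyl unit. It was listed at 0 in all 12 libraries. Its row sits on the unplaced contig chr13_random of mm9, from 308436 to 326346, and the authors' deposited table gives it no test. Of 92 rows on unplaced contigs, 84 were at 0 in all 8 libraries of the SE-BDEV table (91.3%), against 28.03% of the other rows. In the CON-BDEV table the shares were 90.2% and 28.2%. A 0 here can be a failed estimate, and no level or change of this step is given.

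Mvk (chr5:114894277-114910599) encodes mevalonate kinase, the first of the kinases that phosphorylate mevalonate, and its message was the least abundant of the 7. Vehicle libraries held 12.8, 10.1, 11.6 and 10.7 FPKM. CON-BDEV libraries held 7.73, 6.43, 8.43 and 6.74 FPKM, and SE-BDEV libraries held 9.16, 6.05, 7.78 and 8.35 FPKM. Neither treated group overlapped Vehicle, although the highest SE-BDEV library came within 1 FPKM of the lowest Vehicle library. Mvk fell in CON-BDEV by 0.56 (SE 0.09, adjusted p = 0.00684), and its log2 change in SE-BDEV was −0.49 (SE 0.11, adjusted p = 0.0636).

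Pmvk (chr3:89263039-89272931), phosphomevalonate kinase, catalyses the next phosphorylation. It had 64.8, 66.2, 64.3 and 62.5 FPKM in Vehicle, a range narrower than that of either treated group. Levels were 46.7, 45.3, 42.9 and 37.2 FPKM after CON-BDEVs and 42.0, 37.9, 36.2 and 46.7 FPKM after SE-BDEVs. No treated library came near the Vehicle range. Pmvk fell by 0.58 in CON-BDEV (SE 0.06, adjusted p = 0.000887) and fell by 0.66 in SE-BDEV (SE 0.07, adjusted p = 0.00569).

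Mvd (chr8:124957495-124967322) encodes the decarboxylase that yields isopentenyl diphosphate, the isoprenoid building block. Vehicle cells had 40.2, 40.0, 43.5 and 44.3 FPKM. After CON-BDEVs the level was 29.1, 29.7, 29.6 and 24.6 FPKM, and after SE-BDEVs it was 29.2, 21.6, 27.3 and 34.6 FPKM. SE-BDEV replicates were more spread than those of the other groups, and replicate 4 was the nearest to Vehicle. Mvd fell by 0.56 in CON-BDEV (SE 0.06, adjusted p = 0.00104) and fell by 0.58 in SE-BDEV (SE 0.11, adjusted p = 0.0418).

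Idi1 (chr13:8884851-8891642) encodes the isomerase that turns isopentenyl into dimethylallyl diphosphate, the primer of chain growth. Its Vehicle levels were 61.3, 62.5, 57.4 and 60.3 FPKM. Treated levels were 48.3, 36.9, 41.6 and 35.3 FPKM for CON-BDEV and 43.6, 28.0, 37.0 and 43.2 FPKM for SE-BDEV. The highest treated library, CON-BDEV replicate 1, remained below every Vehicle library. Idi1 fell by 0.57 in CON-BDEV (SE 0.08, adjusted p = 0.00419) and fell by 0.68 in SE-BDEV (SE 0.11, adjusted p = 0.0229).

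Fdps (chr3:88897509-88905889), farnesyl diphosphate synthase, condenses these units into farnesyl diphosphate and is the enzyme that nitrogen-containing bisphosphonate drugs inhibit. It was the most abundant message of the 7, at 246, 232, 231 and 237 FPKM in Vehicle. It stood at 138, 142, 150 and 112 FPKM in CON-BDEV and at 137, 115, 114 and 156 FPKM in SE-BDEV. The gap between the lowest Vehicle and the highest treated library was wider than the range within any group. Mean Fdps fell by 42.7% in CON-BDEV and fell by 44.9% in SE-BDEV, the largest change among the 7 measured enzymes. On the log2 scale it fell by 0.81 (SE 0.07, adjusted p = 0.000655) and fell by 0.87 (SE 0.09, adjusted p = 0.00569). Ranked among all genes tested, its fall had rank 6 of 11320 in CON-BDEV and rank 7 of 11311 in SE-BDEV.

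Ggps1 (chr13:14144713-14155668) encodes the synthase that extends farnesyl to geranylgeranyl diphosphate, the anchor of Rab proteins. Its level was 12.3, 12.7, 13.3 and 14.6 FPKM in Vehicle, 14.1, 14.1, 15.95 and 15.5 FPKM in CON-BDEV, and 13.4, 15.6, 13.99 and 13.95 FPKM in SE-BDEV. The groups overlapped in both comparisons. The log2 change was 0.16 in CON-BDEV (95% interval 0.03 to 0.29, limma adjusted p = 0.161) and 0.10 in SE-BDEV (−0.04 to 0.24, adjusted p = 0.485). Neither passed the threshold, and both intervals lay above those of the other 6 enzymes.

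**Figure D1:**
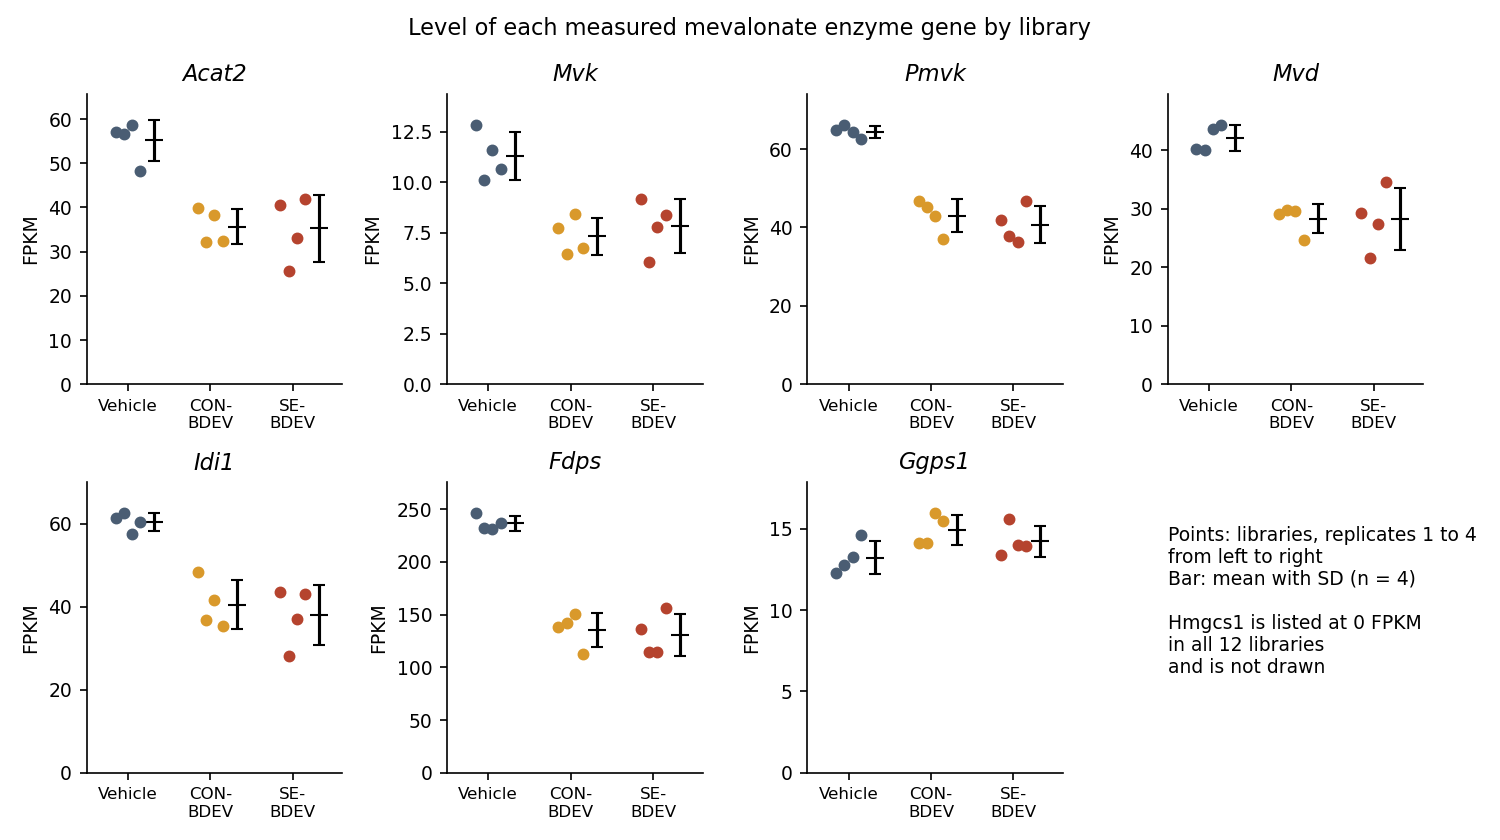
Level of each measured enzyme gene in FPKM (vertical axis, linear from 0) in the 3 groups, 1 panel per gene in pathway order; points are libraries and bars show the mean and SD of 4. In 6 panels all treated points lie below all Vehicle points, while the Ggps1 panel overlaps.

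The authors' deposited table made the same 6 genes significant in both comparisons, Acat2 and Mvk in SE-BDEV included. Their q-values were 0.00686 in the SE-BDEV comparison and 0.00505 in the CON-BDEV comparison. In the authors' deposited table, 0.796% of 11928 genes tested fell significantly in SE-BDEV and 1.17% of 11912 fell in CON-BDEV. For Ggps1 the authors' deposited table gives q = 0.849 in SE-BDEV and q = 0.325 in CON-BDEV. In limma the SE-BDEV calls depended on single libraries: leaving out SE-BDEV replicate 3 or any 1 Vehicle library left 2 of 7 (Fdps and Pmvk), and leaving out SE-BDEV replicate 2 gave 6. Without a filter on low genes, 0 of 7 were called in SE-BDEV, with adjusted p = 0.0554 for Fdps and Pmvk. Over all genes, limma called 104 in the main SE-BDEV fit, 50 without SE-BDEV replicate 3 and 5 to 16 without 1 Vehicle library. Without SE-BDEV replicate 2 they numbered 315, and without a filter 0. The CON-BDEV count was 6 without any 1 library and without the filter.

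**Figure D2:**
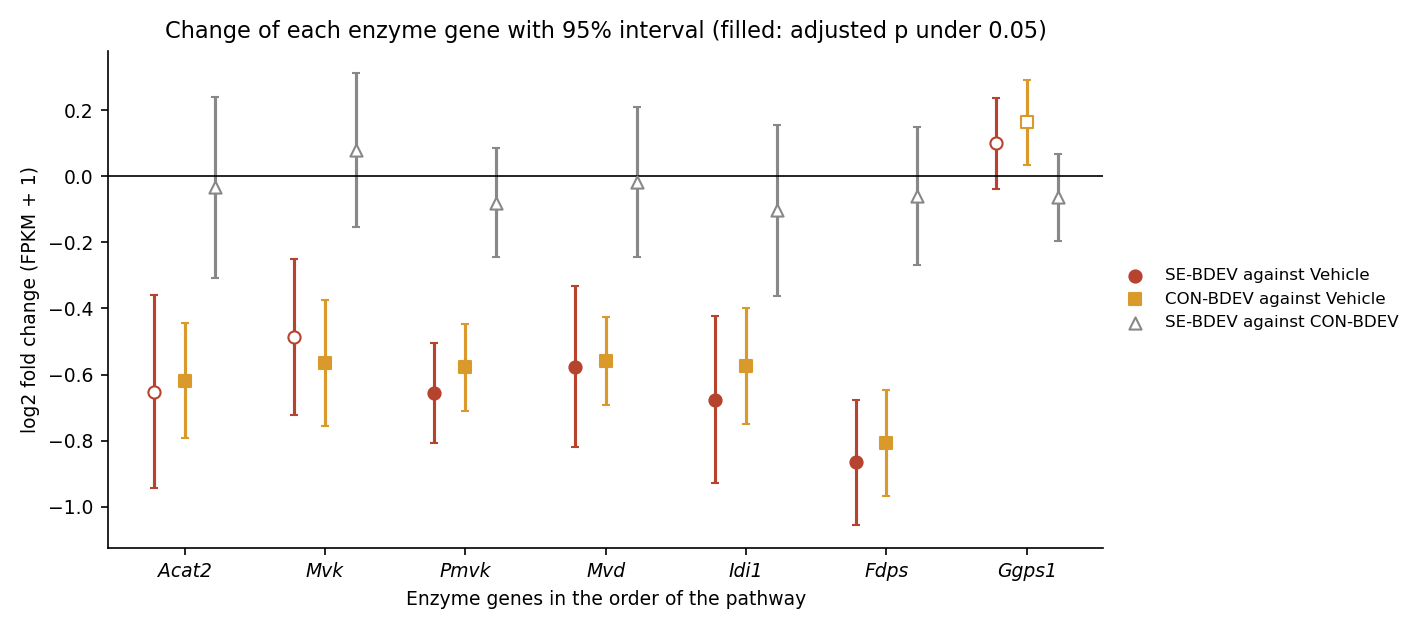
Change of each measured enzyme in log2(FPKM + 1) with its 95% interval (vertical axis), in pathway order, for the 3 comparisons; filled symbols have a limma adjusted p under 0.05. The 6 enzymes from Acat2 to Fdps lie between −0.49 and −0.87 against Vehicle, Ggps1 lies above 0, and every SE-BDEV against CON-BDEV interval spans 0.

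Whether vesicles of the status epilepticus group acted differently from those of the CON group was compared directly in a fit of all 12 libraries. None of the 7 enzymes passed the threshold in SE-BDEV against CON-BDEV, where 0.00% of 11312 genes did (limma). At an unadjusted p under 0.05 there were 296 genes over the whole table (2.62%) and 0 of the 7, and no other tool was run for this contrast. Log2 differences ran from −0.10 for Idi1 to 0.08 for Mvk, each with an adjusted p of 0.9999. For Fdps the difference was −0.06 with a 95% interval of −0.27 to 0.15. Intervals were widest for Acat2 (−0.31 to 0.24) and narrowest for Ggps1 (−0.20 to 0.07). The fit pools the spread over all 12 libraries, and Vehicle had the lowest median SD over genes, so intervals can be too narrow. Differences outside them are not excluded. Each of the 7 enzymes had overlapping libraries between these groups.

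Libraries differed in how far the enzymes lay below Vehicle, and the enzymes did so together. With Ggps1 left aside, the geometric mean of the 6 as a percentage of the Vehicle mean was 69.5, 50.6, 59.6 and 73.5% in SE-BDEV replicates 1 to 4. In CON-BDEV it was 69.8, 62.6, 68.8 and 56.6%, and in Vehicle it was 103, 98.5, 100.8 and 97.2%. SE-BDEV replicate 2 held the group's lowest value for 4 of the 6 genes, and SE-BDEV replicate 4 held the highest for 4. CON-BDEV replicate 4 was the lowest of its group for 4 of the 6. Over 12 libraries, the 15 pairs among the 6 correlated with Pearson's r of 0.84 to 0.99. With group means removed r was 0.37 to 0.90, with a median of 0.72. The 6 pairs with Ggps1 had r of −0.74 to −0.63, and −0.60 to −0.31 with group means removed. These are descriptions over libraries that share depth and scaling, with no test.

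**Figure D3:**
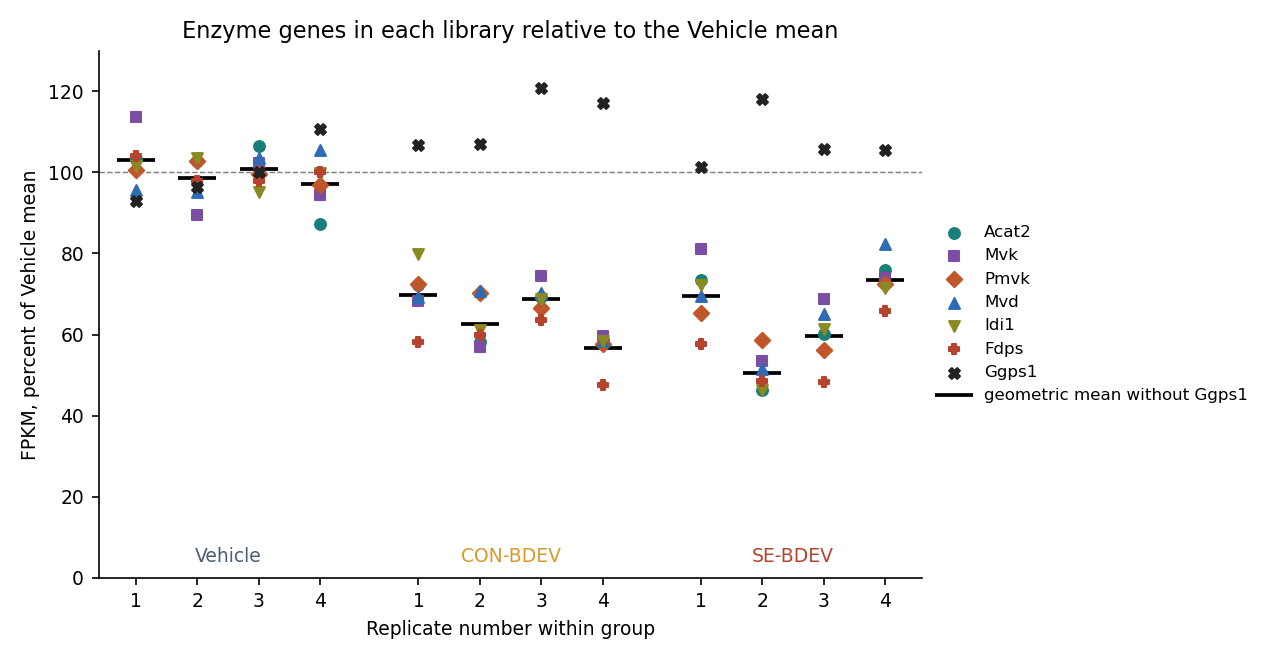
Level of each enzyme gene in each of the 12 libraries as a percentage of its Vehicle mean (vertical axis); symbols are genes and black dashes are the geometric mean of the 6 without Ggps1. The dashes lie at 97.2 to 103% in Vehicle and at 50.6 to 73.5% after either kind of vesicle, with Ggps1 at or above 101.3% in the treated libraries.

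Ratios of neighbouring steps were compared to see where along the pathway the balance of messages shifted. The ratio of Ggps1 to Fdps was 0.0558 in Vehicle (0.0499 to 0.0617 over libraries). It was 0.110 in SE-BDEV (0.0896 to 0.136) and 0.111 in CON-BDEV (0.0996 to 0.138), which is 1.97 and 1.98 times the Vehicle ratio. Neither group overlapped Vehicle, and the two-sided exact permutation test gave p = 0.0286 in each, the smallest that 4 against 4 libraries allow. Adjusted over 12 ratios this was 0.171, which misses the threshold. With this smallest p, a shift of a single ratio in each comparison could not have passed, so the miss says nothing about this ratio. The ratio of Fdps to Idi1 was 3.92 in Vehicle, 3.35 in CON-BDEV (exact permutation p = 0.0571, adjusted 0.229) and 3.46 in SE-BDEV (p = 0.171, adjusted 0.411). Its libraries overlapped between groups. The other 8 ratios, Mvk to Acat2, Pmvk to Mvk, Mvd to Pmvk and Idi1 to Mvd in each comparison, also overlapped, at 0.914 to 1.09 times the Vehicle ratio, with adjusted exact permutation p of 0.411 to 0.971. Ratios with Hmgcs1 could not be formed. Mvk to Acat2 was used in their place and skips at least the Hmgcs1 step, so it is not a ratio of neighbouring steps.

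Levels per length kept 1 order in the 3 groups: Fdps, Pmvk, Idi1, Acat2, Mvd, Ggps1 and Mvk from high to low. Neighbours in this order were not always apart. Libraries of Pmvk and Idi1, and of Idi1 and Acat2, overlapped in all 3 groups, and those of Acat2 and Mvd overlapped in SE-BDEV only. Ggps1 and Mvk overlapped in Vehicle and were apart in both treated groups. Fdps ranked 334 from the top of 11302 genes above 1 FPKM in Vehicle, 605 of 11328 in SE-BDEV and 580 of 11329 in CON-BDEV.

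Isoforms of these steps were listed separately. Mitochondrial Acat1 and the copy Acat3 did not pass the limma test in either comparison, so 0 of 2 tested were called, also at an unadjusted p under 0.05. Of all genes tested, 0.919% were called in SE-BDEV and 2.84% in CON-BDEV. At an unadjusted p under 0.05 the shares were 14.8% and 19.1%. Their medians were −0.10 in SE-BDEV and −0.06 in CON-BDEV, and Idi2 was under the filter. Acat1 had log2 changes of −0.08 in both.

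For the uses of the pathway's products, 2 lists of genes were described. The difference between them was not tested. Of 12 enzymes from squalene to cholesterol, 9 fell in SE-BDEV and 10 in CON-BDEV, with 0 higher calls and medians of −0.59 and −0.54. Over all genes tested, 0.628% fell in SE-BDEV and 1.82% in CON-BDEV. Lss, which closes the sterol ring, went from 29.6 ± 1.69 FPKM in Vehicle to 17.3 ± 2.23 in SE-BDEV (log2 −0.74, limma adjusted p = 0.00569) and 16.8 ± 1.64 in CON-BDEV (−0.79, adjusted p = 0.000443). Cyp51, the lanosterol demethylase, fell by 0.53 (adjusted p = 0.00569) and fell by 0.55 (adjusted p = 0.000887). The other list held 20 genes of other isoprenoid uses, in protein prenylation and in making dolichol, ubiquinone, haem A and modified tRNA. Of these 20, limma called 0 in each comparison, where 0.919% (SE-BDEV) and 2.84% (CON-BDEV) of all genes were called. At an unadjusted p under 0.05 there were 2 of the 20 in each, where 14.8% and 19.1% of all genes were. Their log2 changes ran from −0.22 to 0.11 in SE-BDEV and from −0.19 to 0.11 in CON-BDEV, with medians of 0.01 and −0.00. Fnta, the shared subunit of farnesyl and geranylgeranyl transferases, was 64.9 ± 1.86 FPKM in Vehicle, 67.5 ± 4.03 in SE-BDEV and 69.2 ± 2.00 in CON-BDEV. Changes of the others nearest to a call were −0.19 for Chml in CON-BDEV (a Rab escort protein, adjusted p = 0.143), 0.11 for Dhdds (a dolichol synthase subunit, adjusted p = 0.203) and −0.22 for Trit1 (a tRNA isopentenyl transferase, adjusted p = 0.234) in SE-BDEV.

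Upstream, 3 of 4 genes that supply cytosolic acetyl-CoA or acetoacetyl-CoA fell in SE-BDEV and 4 of 4 in CON-BDEV, with medians of −0.49 and −0.46. The shares of all genes tested that fell were 0.628% and 1.82%. Slc25a1, the mitochondrial citrate carrier, was 72.3 ± 3.80 FPKM in Vehicle, 49.6 ± 6.63 in SE-BDEV (adjusted p = 0.0158) and 51.0 ± 3.42 in CON-BDEV (adjusted p = 0.000887). Aacs, which activates acetoacetate for lipid synthesis, fell by 0.68 in SE-BDEV and fell by 0.70 in CON-BDEV (limma adjusted p = 0.0158 and 0.000952). Among regulators, beside the same shares of all genes, 2 of 7 tested fell in SE-BDEV and 3 of 7 in CON-BDEV. Their medians were −0.06 and −0.07, and 0 rose. Srebf2 itself fell by 0.53 in SE-BDEV and fell by 0.47 in CON-BDEV (adjusted p = 0.0299 and 0.000954). Insig1, which holds SREBP2 in the endoplasmic reticulum and is a target of it, fell by 0.92 in SE-BDEV and fell by 0.77 in CON-BDEV (adjusted p = 0.0280 and 0.00440). The SE-BDEV counts of these lists rested on few libraries. Leaving out any 1 Vehicle library left 2 to 4 of the 12 squalene to cholesterol genes called and 0 for the acetyl-CoA supply and the regulators. Over all genes, those fits called 5 to 16. Leaving out SE-BDEV replicate 3 left 4 squalene to cholesterol genes and 0 regulators, with 50 calls over all genes. The regulators' count was 1 without SE-BDEV replicate 1, with 55 calls over all genes.

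**Figure D4:**
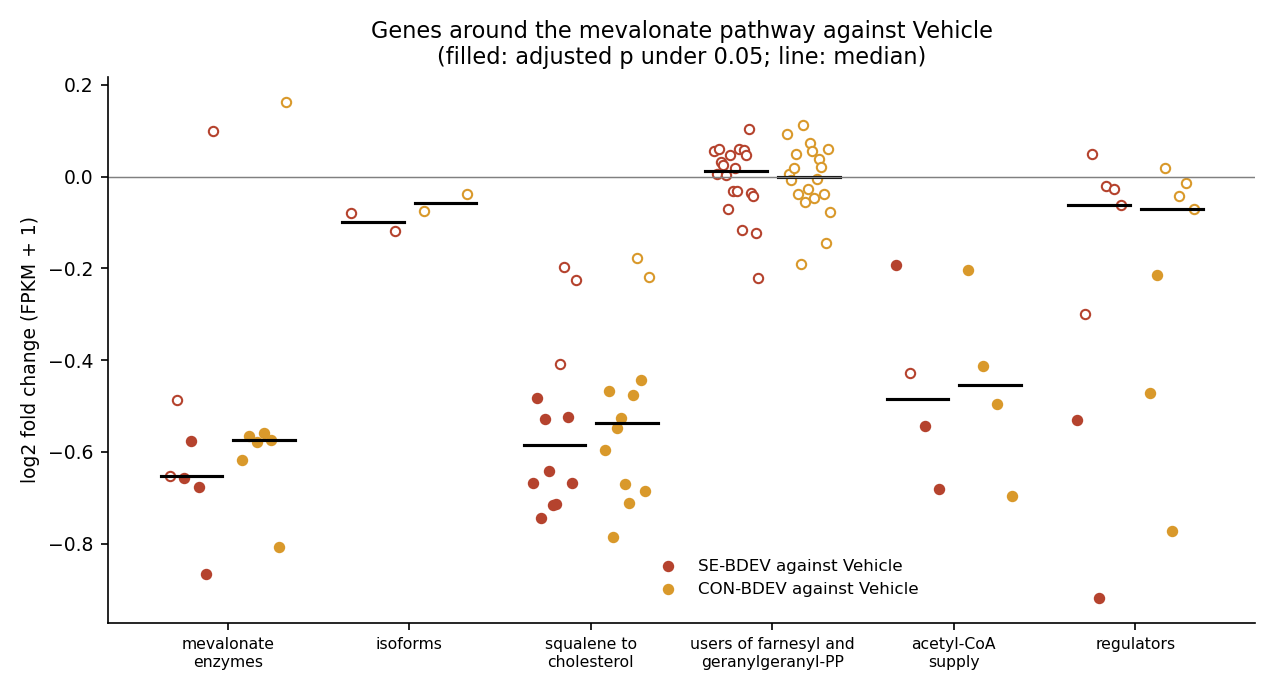
Log2 fold change against Vehicle (vertical axis, log2(FPKM + 1) scale) of each gene of the mevalonate enzymes and of the 5 related lists, in both comparisons; filled points have a limma adjusted p under 0.05 and black lines are medians. Enzymes from squalene to cholesterol lie between −0.79 and −0.18. The 20 genes of other isoprenoid uses (axis label: users of farnesyl and geranylgeranyl-PP, PP for diphosphate) lie between −0.22 and 0.11.

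Likeness to the enzymes was measured as Pearson's r with their mean standardised profile over 12 libraries, for 11294 genes that are not members. The 8 most alike were Scd2 (r = 0.997), Srebf2 (0.990), Fdft1 (0.988), Sqle (0.987), Aacs (0.986), Scd1 (0.985), Stard4 (0.984) and Dhcr7 (0.980). Scd1 and Scd2 encode stearoyl-CoA desaturases, which make monounsaturated fatty acids, and Stard4 encodes a sterol transfer protein. Fdft1, Sqle and Dhcr7 stand in the squalene to cholesterol branch. Scd2, the most alike, went from 383 FPKM in Vehicle to 256 in SE-BDEV and 266 in CON-BDEV. The enzymes' own r with this profile was 0.926 for Mvk to 0.978 for Fdps, and −0.59 for Ggps1. Each measured enzyme, Ggps1 included, is part of the profile, so its own r cannot be set beside those of other genes. The 12 points share libraries and scaling, so these values describe likeness only.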

How the data were processed

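Polyadenylated RNA of 12 N2a libraries was sequenced, with a kit that keeps the strand per the labels' protocols. The authors used TopHat2 and Cuffdiff on mm9, per the submitters' processing notes; no version, annotation or strand setting is stated in the sources used here. Per the file headers, the deposited values are FPKM for each gene in each library, 1 table with SE-BDEV and Vehicle and the other with CON-BDEV and Vehicle. The authors' comparison tables give a log2 fold change, a test statistic (a score, not used here), a p-value and a q-value. Vehicle columns agreed between the tables within 0.0335% in scale, so their mean was used where 12 libraries enter; the scale of the treated libraries could be checked only through them.

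Here log2(FPKM + 1) was fitted with limma 3.58.1 in R 4.3.3 (empirical Bayes with trend, two-sided), after a filter of a mean of at least 1 FPKM. Adjusted p-values are Benjamini-Hochberg over all genes tested, with a threshold of 0.05. Fold changes on this scale understate the change of low genes. Depth was estimated from the lowest FPKM values. Ratios were tested by exact permutation; 2 of the 12 (Mvk to Acat2) were added after the data were seen, in place of those with Hmgcs1. The limma script was tested on simulated data. Named are the 8 enzymes, the 2 genes with the smallest adjusted p of each related list and comparison, and the 8 genes most alike. Some genes of the lists are not reported here and were left out of their counts. Members and lists were chosen with earlier results of these data known. Alternatives were another pseudocount (0.1 or 0.5), filter, scaling, model or set of libraries, and the authors' calls. Gene positions are on mm9, as deposited, and promoters on GRCm38.p6; none was converted. Plots used matplotlib 3.10.9 under Python 3.11.15.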

Additional observations from a re-analysis of the deposited data

Results flagged for a closer look

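Among 21 groups of 4 libraries (7 enzymes in 3 groups), 1 library stood apart. Mvd in CON-BDEV replicate 4 was at 24.6 FPKM, and the nearest of the other CON-BDEV libraries was at 29.1 FPKM. The gap was 0.885 of the range of the group, over Dixon's 95% critical value, and chance alone marks about 1 group in 20. Without this library the log2 change of Mvd in CON-BDEV against Vehicle was −0.50 (limma adjusted p = 0.000481), beside −0.56 with it. The same library held the lowest CON-BDEV value of 4 of the 6 enzymes other than Ggps1.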

How the results depend on the processing

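In CON-BDEV against Vehicle 6 enzymes fell under every alternative run. The count of 4 in SE-BDEV against Vehicle became 0 without a filter and 2 without the mean-variance trend, 5 with a filter of 5 FPKM or with median scaling, 6 in the fit of 12 libraries or by the authors' calls, and 2 to 6 with 1 library left out. Fdps and Pmvk were called in all 8 of those fits. Over all genes, 104 calls in SE-BDEV became 0 without a filter, 171 in the fit of 12 libraries and 5 to 315 with 1 library left out; 321 in CON-BDEV became 176, 133 and 134 to 556, and 183 without the trend. More genes tested without a filter, and fewer samples with a library left out, are part of these settings. In SE-BDEV, without a filter, the related lists had 0 calls for squalene to cholesterol, acetyl-CoA supply and regulators. With 1 library left out those counts were 2 to 10, 0 to 4 and 0 to 3, and in CON-BDEV 10 to 11, 4 to 4 and 2 to 3. Isoforms and the genes of other isoprenoid uses had 0 throughout. Ratios at the smallest exact p numbered 1 to 2 in each comparison. In SE-BDEV against CON-BDEV, leaving out 1 library turned the sign of Acat2 (−0.12 to 0.11), Mvd (−0.12 to 0.10) and Idi1 (−0.17 to 0.0325), none of them called.

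The labels do not say if replicate numbers pair the libraries. Deviations of libraries with the same number correlated from −0.123 to 0.298 between groups. SE-BDEV replicates 1 (r = 0.196) and 2 (0.298) correlated best with the CON-BDEV library of the same number. Replicates 3 (−0.074) and 4 (−0.123) did not, and against Vehicle the best match was never the same number. These values do not settle whether the libraries were paired. With the replicate block, 4 enzymes fell in SE-BDEV and 6 in CON-BDEV; in SE-BDEV Idi1 had an adjusted p of 0.0505 and Mvk one of 0.0401. Calls over all genes went from 104 to 48 and from 321 to 135. With no library totals deposited, no counting intervals are given.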

Other observations

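Genes next to the enzymes on the chromosome were looked at after the values of the enzymes had been seen. Of the 14 nearest rows on either side, 11 were measured and limma called 0 of them in either comparison, where 0.919% and 2.84% of all genes were called. At an unadjusted p under 0.05 there were 0 of the 11 in SE-BDEV and 3 in CON-BDEV, where 14.8% and 19.1% of all genes were. Log2 changes of the 11 ran from −0.16 to 0.14 in SE-BDEV and from −0.25 to 0.24 in CON-BDEV.

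Mmab, which encodes an enzyme of cobalamin metabolism, lies 240 bases before Mvk on the opposite strand. It was 4.46, 4.31, 4.91 and 4.86 FPKM in Vehicle, 3.73, 4.47, 3.49 and 4.52 FPKM in SE-BDEV and 3.47, 3.86, 3.54 and 4.14 FPKM in CON-BDEV. All CON-BDEV libraries were below Vehicle, and SE-BDEV libraries overlapped it. The log2 change was −0.25 in CON-BDEV (limma adjusted p = 0.0730) and −0.16 in SE-BDEV (adjusted p = 0.385). Rusc1, 223 bases from Fdps, was 13.5 ± 0.472 FPKM in Vehicle, 13.8 ± 1.71 in SE-BDEV and 12.9 ± 0.393 in CON-BDEV (SD, n = 4). Arid4b, 381 bases from Ggps1, was 13.4 ± 0.489, 14.1 ± 0.228 and 14.1 ± 0.481 FPKM in the same order, and neither gene was called.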
